A study of Mus musculus with 35 samples.

Results

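The genes described here are those of the interleukin-20 family, interleukin-22 and interleukin-17 axis of skin: the ligands Il19, Il20, Il24, Il17a and Il17f, the receptor chains Il20ra, Il20rb, Il22ra1 and Il17ra, and Il22ra2, which encodes the soluble decoy receptor of IL-22. They were taken by symbol, 10 genes of the 36106 in the count table, and every one was matched to a row. As background, IL-19, IL-20 and IL-24 are cytokines made by keratinocytes and myeloid cells that act on keratinocytes through receptors built from IL-20RB with either IL-20RA or, for IL-20 and IL-24, IL-22RA1. IL-22 comes from lymphocytes and signals through IL-22RA1 with IL-10RB, and both receptor types lead through JAK kinases to STAT3. IL-22RA2 binds IL-22 without signalling, and IL-17A and IL-17F act through IL-17RA with IL-17RC to raise antimicrobial peptides and neutrophil chemokines in the epidermis.

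The study sequenced bulk RNA of 35 skin samples, taken from 19 female mice of the inbred strain C57BL/6J at an age of 10 weeks. Radiated skin had received 25 Gy (3.6 Gy/min for 420 seconds) on the left flank, where it was then shaved with an electric razor, and was sampled at weeks 1, 2, 3 and 4 with 4 samples a week. Control skin carries the same week labels, with 4 samples a week, and 3 samples are labelled sham. The protocol places the biopsies at the radiated site and does not give the site of the control skin, and no label gives a time point for sham skin. No engineered allele or drug is named for any group. Where a week's radiated and control samples carry the same number, they were read as 1 mouse sampled at both places, and different weeks and sham skin as different mice. The sources used here do not say more about how replicates were taken, so p-values measure the spread between these samples. In bulk skin, fewer cells of a type and less RNA per cell cannot be told apart.

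The total estimated count per sample ran from 17362853 to 28487885, so that 3 counts, taken as the floor of detection, correspond to between 0.114 and 0.175 CPM (a gene's count relative to the TMM-scaled total of its library). Such floors and the counting intervals below cover counting error only. Radiated and control skin of a week were compared with edgeR's quasi-likelihood F test, and a gene was called at a Benjamini-Hochberg adjusted p under 0.05 over all genes tested. Of the 6 keratinocyte markers listed, none was at 0 in any group, and they summed to between 5366 and 24193 CPM over the samples of all groups. In week 3 total-count scaling moved the median over all genes, as log2 fold change, from 0.08 to 0.32 and the calls from 2408 higher and 2397 lower to 4054 higher and 1270 lower, and in week 1 it moved that median from 0.05 to 0.18.

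The members lie in 6 places of the mouse genome (GRCm38). Il24 (130882074 to 130887454), Il20 (130906985 to 130911451) and Il19 (130932656 to 130940115) stand side by side on the minus strand of chromosome 1, and Il17a (20730905 to 20734496) and Il17f (20777146 to 20790617) lie together elsewhere on that chromosome. Il22ra2 (19621998 to 19634681) and Il20ra (19712570 to 19760053) are next to each other on the plus strand of chromosome 10. Il20rb is on chromosome 9 (100457719 to 100486788), Il22ra1 on chromosome 4 (135728172 to 135752140) and Il17ra on chromosome 6 (120463247 to 120487559). The antisense gene Gm33332 overlaps the locus of Il20ra, but 0 of the 2458 words of 31 bases in the Il20ra transcripts occur, on either strand, in transcripts of another gene. Estimated counts split reads that fit several genes: 8.75% of the 31-base words of the Il17f transcripts also occur in transcripts of 1529 other genes, and 0.72% of those of Il17ra in transcripts of 2799. The share was at most 0.4% for the other 8 members. Estimates that were not whole to within 1e-06 occurred in all 35 samples for Il17f and for Il17ra and in 15 for Il20rb, and in none for the other 7 members.

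RefSeq promoters (GRCm38.p6, 250 bases before to 50 after the start) were found for 7 of the 10 members, Il22ra1, Il20ra, Il20rb, Il19, Il20, Il17a and Il17f. The 4 printed here are those of Il19, which rose in radiated skin, and of the 3 receptor chains that fell together, read 5′ to 3′ on the strand of the gene. Their regions are chr1:130940066-130940365 on the minus strand for Il19, chr10:19712337-19712636 on the plus strand for Il20ra, chr9:100486424-100486723 on the minus strand for Il20rb and chr4:135727909-135728208 on the plus strand for Il22ra1. Capitals mark matches on either strand to the AP-1 motif TGACTCA, the STAT motif TTCNNNGAA, the NF-kB motif, GGG and TTTCC with 2 bases between, or the C/EBP motif TTGCNNAA.
Il19: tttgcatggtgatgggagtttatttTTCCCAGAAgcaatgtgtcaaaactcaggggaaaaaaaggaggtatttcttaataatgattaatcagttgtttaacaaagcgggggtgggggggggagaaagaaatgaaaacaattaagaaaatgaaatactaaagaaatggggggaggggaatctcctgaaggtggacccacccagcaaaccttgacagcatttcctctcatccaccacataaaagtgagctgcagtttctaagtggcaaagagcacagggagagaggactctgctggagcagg
Il20ra: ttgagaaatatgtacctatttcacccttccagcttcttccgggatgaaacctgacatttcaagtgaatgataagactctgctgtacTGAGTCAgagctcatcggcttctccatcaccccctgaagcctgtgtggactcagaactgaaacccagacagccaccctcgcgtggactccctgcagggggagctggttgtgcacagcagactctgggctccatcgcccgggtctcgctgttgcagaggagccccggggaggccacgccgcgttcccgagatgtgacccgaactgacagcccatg
Il20rb: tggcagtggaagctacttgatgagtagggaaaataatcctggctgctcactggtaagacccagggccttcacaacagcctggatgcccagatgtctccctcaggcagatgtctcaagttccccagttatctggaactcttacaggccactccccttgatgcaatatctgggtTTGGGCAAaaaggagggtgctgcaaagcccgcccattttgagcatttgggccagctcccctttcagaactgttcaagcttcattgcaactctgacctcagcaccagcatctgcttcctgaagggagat
Il22ra1: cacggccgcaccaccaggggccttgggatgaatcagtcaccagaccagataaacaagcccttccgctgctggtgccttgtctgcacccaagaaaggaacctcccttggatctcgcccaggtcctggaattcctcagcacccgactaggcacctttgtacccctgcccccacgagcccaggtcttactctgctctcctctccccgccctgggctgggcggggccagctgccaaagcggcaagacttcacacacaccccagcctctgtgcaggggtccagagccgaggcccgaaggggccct
The Il19 window held 1 STAT match, TTCCCAGAA, at bases 26 to 34. The Il20ra window held 1 AP-1 match, TGAGTCA, at bases 87 to 93, and the Il20rb window 1 C/EBP match, TTGGGCAA, at bases 173 to 180. The Il22ra1 window and those of Il20, Il17a and Il17f held none of the 4 motifs, and no 2 matches overlapped. Among 32851 promoters of the same length, the AP-1 letters occur in 5.2%, the STAT letters in 8.3%, the NF-kB letters in 1.63% and the C/EBP letters in 10.8%, so each match is a description of the letters and no more.

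Radiated and control skin of a week were compared to find which members changed after radiation and when. In weeks 3 and 4 the ligand genes Il19 and Il24 rose and so did Il17ra, while the decoy gene Il22ra2 and the IL-20 receptor chains Il20ra and Il20rb fell, and in week 4 Il22ra1 fell as well. In week 1 none of the 7 members that passed the filter on low counts was called, as were 0% of all genes tested, and 3 of the 7 had an unadjusted p under 0.05, while the DESeq2 Wald test called 1 (Il22ra2), beside 424 of all genes. In week 2 none of 6 was called, against 0.00577% of genes, 1 had an unadjusted p under 0.05, and DESeq2 called 1 (Il20ra), beside 711 of all genes. The numbers of all genes at that unadjusted threshold are given with the alternatives below, and the member counts at it are not read as a result. In week 3, 6 of 8 members were called, 3 higher and 3 lower, against 27.2% of genes (13.6% higher and 13.6% lower), and in week 4 it was 7 of 8, 3 higher and 4 lower, against 48.4% (24.2% higher and 24.2% lower). In both weeks Il19 and Il24 reached the filter's level (0.488 CPM in week 3 and 0.445 in week 4, in at least 4 libraries) in 0 of 4 control libraries and Il22ra2 in 2 of 4 radiated ones. These 3 passed only through the group in which they were high, so the counts describe the 8 members that passed and are not set against the share of all genes as support. The median log2 fold change of the same 8 was -0.34 in week 3 and -0.64 in week 4, beside 0.08 and 0.02 for all genes tested. Il20 and Il17a passed the filter in none of the 4 weeks. Groups that did not overlap were seen for 5 of 8 members averaging 0.1 CPM or more in week 3, against 28.6% of such genes, and for 7 of 9 in week 4, against 41.6%. Il19 and Il24 averaged 0.0480 and 0.0795 CPM in control skin of week 3 and 0.0107 and 0 CPM in that of week 4. They met the 0.1 CPM only through radiated skin, so these counts too are not set against the shares as support. The week 4 count of calls was 7 under every alternative run. The week 3 count of calls fell to 3 without radiated replicate 3, without control replicate 1 or without control replicate 2, and with the mouse as a block it was 5, with Il17ra lost.

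**Figure D1:**
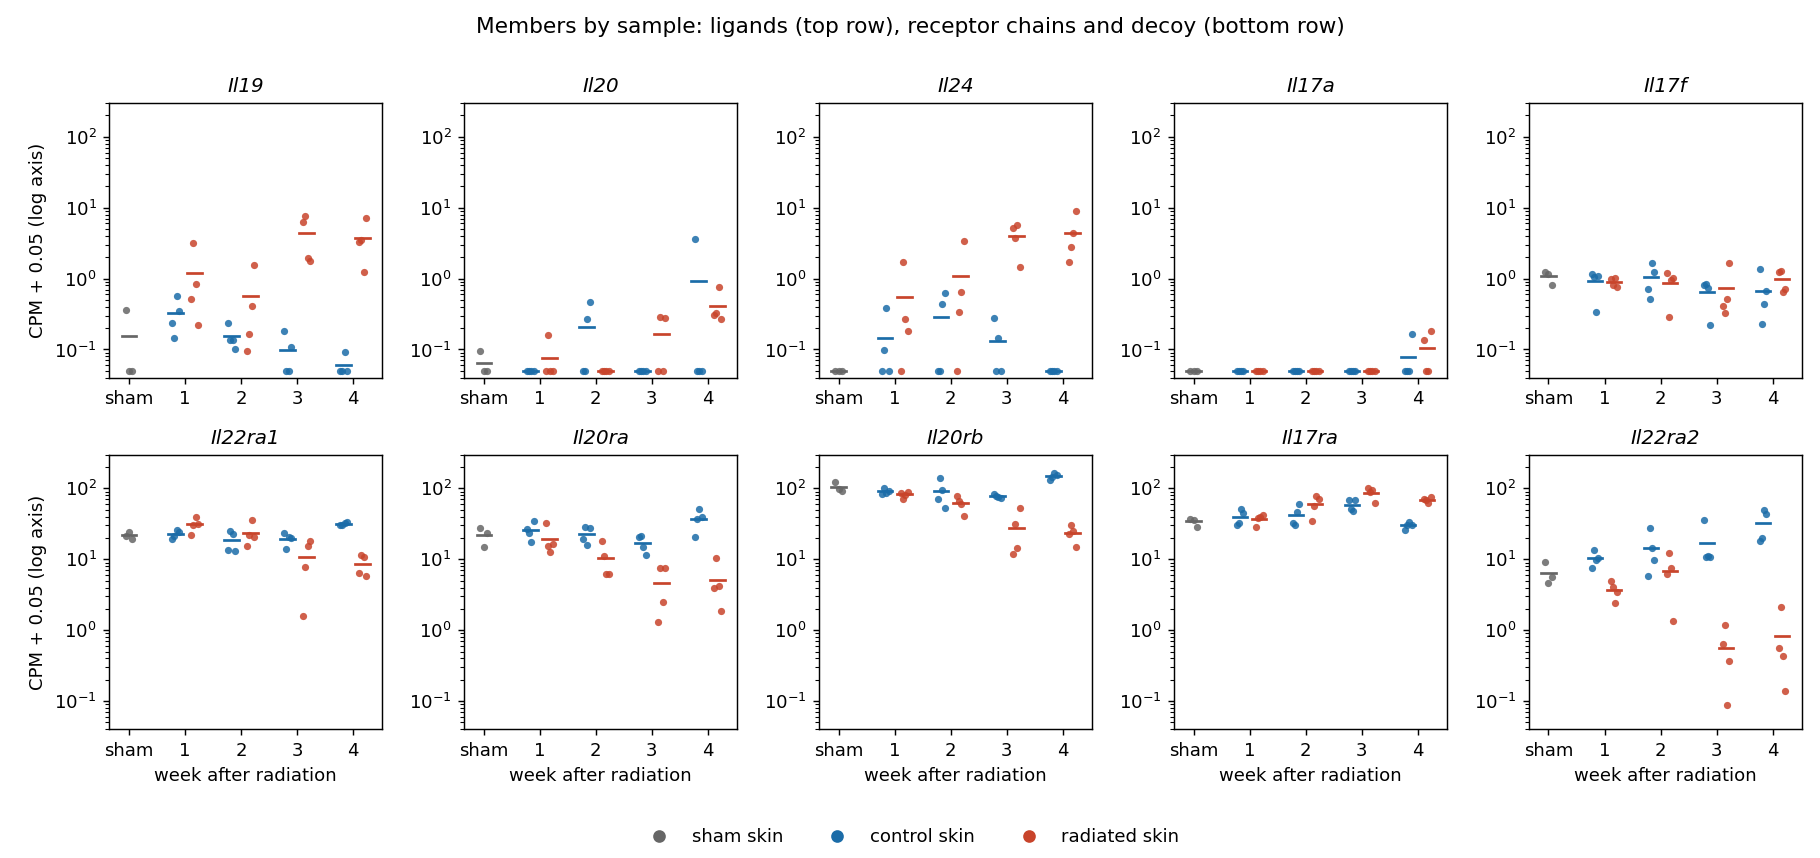
CPM of the 10 members in each of the 35 samples, with 0.05 added for the log axis. The x axis gives sham skin and weeks 1 to 4, points are samples and short lines are group means. In week 4 the radiated samples of Il19, Il24 and Il17ra all lie above the control samples, and those of Il22ra1, Il20ra, Il20rb and Il22ra2 all lie below them, where 41.6% of all genes averaging 0.1 CPM or more do not overlap either.

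Among the ligands, Il24, a cytokine of stressed and wounded keratinocytes, was at 5.17, 3.64, 5.71 and 1.43 CPM in the 4 radiated samples of week 3 and at 0.225, 0, 0.0930 and 0 CPM in the control samples. Every radiated sample was above every control sample. The estimated counts summed to 372 against 7, the ratio of mean CPM was 50.1-fold, and the log2 fold change was 5.55 ± 0.809 SE (edgeR adjusted p 0.00217). Without control replicate 1, the highest control sample, it was 6.77. At week 4 the radiated samples held 1.66, 2.72, 4.32 and 8.92 CPM and all 4 control samples were at 0, so that the level was at least 32.9-fold higher against the floor of 3 counts per library (edgeR adjusted p 0.000648). All 3 sham samples were at 0 too. In weeks 1 and 2 the gene was below the filter, and single radiated samples stood above the rest: replicate 2 of week 1 with 1.67 CPM and replicate 4 of week 2 with 3.32 CPM.

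Il19, which signals through the IL-20RA and IL-20RB pair, was at 6.22, 7.46, 1.90 and 1.70 CPM in radiated skin of week 3, against 0.135, 0, 0 and 0.0571 CPM in control skin. The groups did not overlap, and the counts summed to 383 in radiated and 4 in control skin (log2 fold change 6.39 ± 0.892 SE, edgeR adjusted p 0.00188). Without control replicate 1, again the highest control sample, the log2 fold change was 7.66. In week 4 the radiated samples were at 3.20, 3.41, 1.17 and 7.14 CPM, and the control skin held 1 count in 1 of 4 samples. The ratio of the counts per library size was 334 with a 95% counting interval from 59.6 to 13240 (edgeR adjusted p 8.46e-05). The range in week 1 was 0.175 to 3.13 CPM in radiated and 0.0950 to 0.525 CPM in control skin, which overlap (log2 fold change 2.02 ± 0.851 SE, edgeR adjusted p 0.326). Radiated replicate 2 of week 1 and replicate 4 of week 2, the samples with the highest Il24 of their groups, also had the highest Il19 of theirs, at 3.13 and 1.53 CPM.

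Il20, the third gene of the cluster and a further ligand of both receptor types, was at 0 in 24 of the 35 samples. At week 4 the radiated samples held 6, 7, 17 and 5 counts, and of the control samples replicate 1 held 67 counts, or 3.55 CPM, and the other 3 held none. That control sample was the highest of all 35, and neither the order of the 2 groups nor a fold can be read from a group set by 1 library.

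Of the ligands that lymphocytes make, Il17a had 8 counts in all, 2 in radiated replicate 1, 3 in radiated replicate 4 and 3 in control replicate 4 of week 4, and the other 32 samples held none. Il22 had 1 count, in radiated replicate 4 of week 4, but 53.61% of the 31-base words of its transcripts also occur in Iltifb, so that its reads could be assigned to either gene and its level is uncertain. For Il17a a count of 0 allows up to 3 counts, so levels under 0.114 to 0.175 CPM were not detectable at this depth. Il17f ranged from 0.171 to 1.62 CPM over the 35 samples, and the groups overlapped in every week. Its log2 fold change was 0.17 ± 0.652 SE (edgeR adjusted p 0.869) in week 3 and 0.60 (SE 0.547, adjusted p 0.395) in week 4. With the largest share of words in common with other genes among the members, and low counts, the Il17f values are uncertain.

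The IL-20 receptor chains fell in weeks 3 and 4. Il20rb, the chain common to both IL-20 receptor types, was at 11.9, 31.6, 14.2 and 53.5 CPM in radiated skin of week 3 and at 84.6, 77.0, 76.1 and 72.3 CPM in control skin. No radiated sample reached the lowest control sample, the means stood 2.79-fold apart, and the log2 fold change was -1.46 ± 0.417 SE (edgeR adjusted p 0.0289). In week 4 the samples were at 22.4, 30.8, 25.3 and 14.9 CPM against 133, 146, 165 and 156 CPM. The groups were 6.43-fold apart by their means with no overlap (log2 fold change -2.68 ± 0.196 SE, edgeR adjusted p 6.88e-06). The week 3 call was lost in 6 of the 8 fits that left out 1 library, with adjusted p between 0.0530 and 0.0645, and under total-count scaling, with adjusted p 0.0621. In weeks 1 and 2 the ranges overlapped, at 71.1 to 89.9 CPM in radiated against 84.1 to 100.4 CPM in control skin and at 40.4 to 78.1 against 53.5 to 142 CPM, and neither difference was called.

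Il20ra, the chain that pairs with it for IL-19, IL-20 and IL-24, was at 1.23, 7.46, 2.48 and 7.37 CPM in radiated skin of week 3 and at 20.3, 21.1, 14.9 and 11.3 CPM in control skin. The groups did not overlap (log2 fold change -1.84 ± 0.514 SE, edgeR adjusted p 0.0263), and the mean was 3.64-fold lower. In week 4 it was at 3.84, 10.3, 4.15 and 1.83 CPM against 20.3, 36.7, 50.7 and 39.6 CPM. The mean was 7.32-fold lower (log2 fold change -2.86 ± 0.471 SE, edgeR adjusted p 0.000798), and without radiated replicate 2 the log2 fold change was -3.48. In week 2 Il20ra was lower in radiated skin in 4 of 4 mice with overlapping ranges, at 18.0, 11.2, 6.19 and 6.10 against 19.5, 28.5, 15.7 and 27.3 CPM, and the difference did not pass (edgeR adjusted p 0.209). The week 3 call was lost without radiated replicate 3, control replicate 1 or control replicate 2, with adjusted p up to 0.0630.

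Il22ra1, the chain through which keratinocytes sense IL-22 and also IL-20 and IL-24, was at 1.55, 7.65, 15.4 and 17.9 CPM in radiated skin of week 3 and at 23.4, 14.0, 20.5 and 19.7 CPM in control skin, and the ranges overlapped (log2 fold change -0.84 ± 0.558 SE, edgeR adjusted p 0.286). At week 4 the radiated samples were at 6.32, 11.4, 10.7 and 5.80 CPM and the control samples at 30.9, 30.1, 32.3 and 33.8 CPM. The groups were 3.71-fold apart by their means (log2 fold change -1.88 ± 0.217 SE, edgeR adjusted p 8.66e-05). In week 1 Il22ra1 was higher in radiated skin in 4 of 4 mice, with a log2 fold change of 0.47 (SE 0.191) that did not pass (edgeR adjusted p 0.316).

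Il17ra, the signalling chain for IL-17A and IL-17F, went the other way. In week 4 it was at 70.0, 67.8, 61.4 and 74.6 CPM in radiated and 25.6, 30.9, 33.7 and 30.2 CPM in control skin. The groups did not overlap, with means 2.27-fold apart and a log2 fold change of 1.19 ± 0.104 SE (edgeR adjusted p 1.79e-05). In week 3 it was at 101, 90.2, 94.5 and 61.9 CPM against 67.9, 50.7, 47.6 and 68.6 CPM. Radiated replicate 4 lay inside the control range, and the log2 fold change of 0.60 (SE 0.193) passed with an edgeR adjusted p of 0.0462. That call did not hold with the mouse as a block (adjusted p 0.0938), and it was lost in 7 of the 8 fits that left out 1 library, with adjusted p between 0.0595 and 0.123. In week 2 radiated skin ranged from 35.0 to 79.0 CPM and control skin from 30.1 to 60.5 CPM, without a call.

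**Figure D2:**
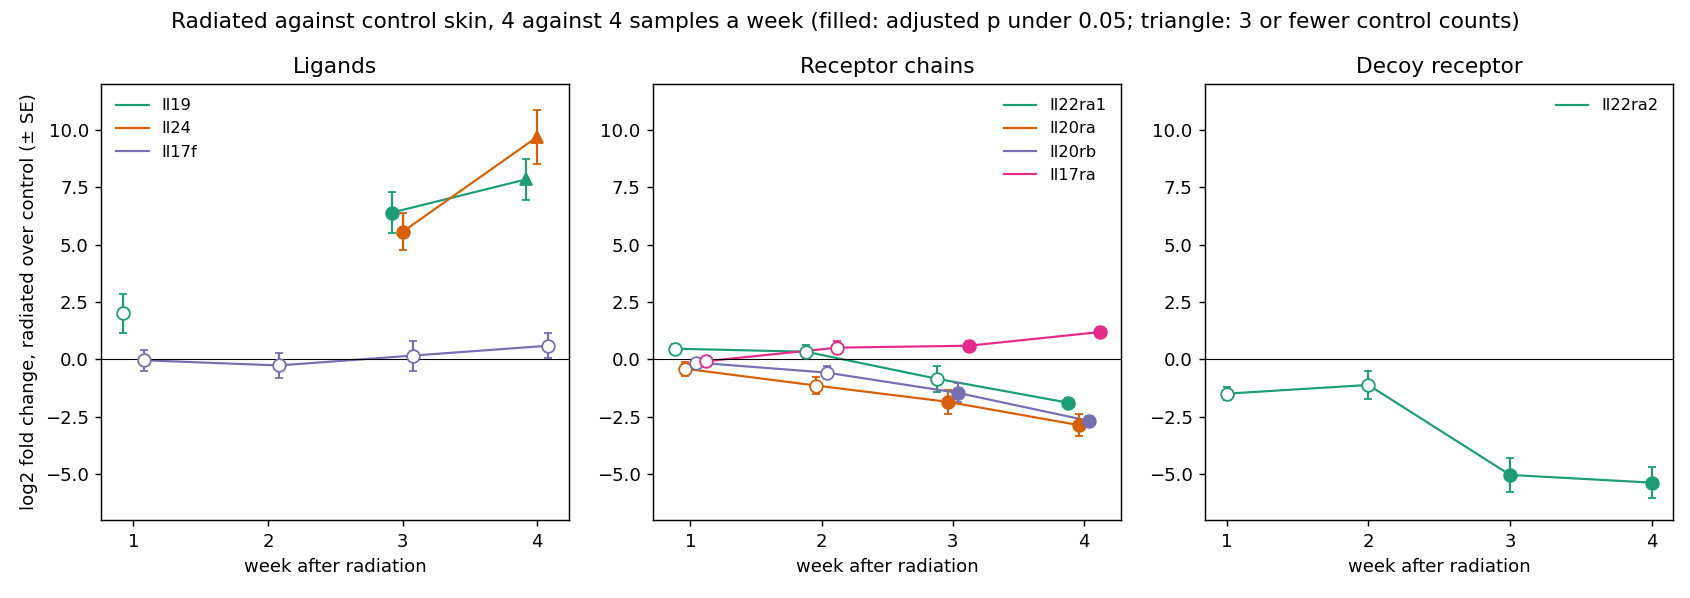
Log2 fold change of radiated over control skin with its standard error in weeks 1 to 4, for the 8 members that passed the filter in at least 1 week, 4 against 4 samples a week. Filled points had an adjusted p under 0.05 in edgeR, and triangles (Il19 and Il24 in week 4) are fitted values against controls with 1 and 0 counts, whose size depends on the prior count. Il22ra2 stands at -5.03 and -5.36 in weeks 3 and 4, and Il17ra is the called receptor chain above 0.

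The largest fall among the members, by log2 fold change in week 3 and in week 4, was that of Il22ra2, the decoy. It was at 0.595, 1.12, 0.0381 and 0.322 CPM in radiated skin of week 3, where replicate 3 held 1 count, and at 35.9, 10.7, 11.0 and 10.8 CPM in control skin. The groups were 33.0-fold apart by their means (log2 fold change -5.03 ± 0.750 SE, edgeR adjusted p 0.00235). Without control replicate 1 the log2 fold change was -4.38, and without radiated replicate 2 it was -5.73. In week 4 it was at 0.512, 2.10, 0.377 and 0.0892 CPM against 18.0, 19.6, 50.02 and 43.2 CPM. The means were 42.6-fold apart with no overlap (log2 fold change -5.36 ± 0.685 SE, edgeR adjusted p 0.000166). Without radiated replicate 2, the highest radiated sample, the log2 fold change was -6.61.

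Il22ra2 was also the member whose week 1 samples stood apart. Radiated skin held 4.87, 4.05, 2.35 and 3.36 CPM and control skin 7.54, 13.6, 9.64 and 10.5 CPM, with no overlap, as was so for 7.81% of the genes that averaged 0.1 CPM or more. The log2 fold change of -1.49 (SE 0.274, unadjusted p 0.000209) did not pass over all genes (edgeR adjusted p 0.171). It passed with the DESeq2 Wald test (adjusted p 0.000174) and on leaving out radiated replicate 1 (edgeR adjusted p 0.0264). In week 2 the groups overlapped, at 6.06, 12.1, 7.45 and 1.31 CPM against 5.75, 28.0, 14.2 and 9.59 CPM (log2 fold change -1.11 ± 0.607 SE, edgeR adjusted p 0.46).

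Levels of different genes were set side by side per kb of exon. In control skin of week 4 the decoy had a mean of 13.1 CPM per kb and Il22ra1 12.4, while in radiated skin of that week they were at 0.308 and 3.33 CPM per kb. By sample, the ratio of decoy to receptor was 0.602 to 1.59 in control and 0.0158 to 0.189 in radiated skin of week 4, and 0.553 to 1.58 against 0.00254 to 0.393 in week 3. For week 1 it was 0.387 to 0.665 in control and 0.0606 to 0.225 in radiated skin, and in week 2, where the ranges met, 0.437 to 1.15 and 0.0655 to 0.560. Sham skin lay between 0.195 and 0.436. The ratio is given as a description, without a test. On the same scale Il20rb had the highest mean of the 10 members in control skin of week 4, at 35.7 CPM per kb, and Il20ra was at 15.2 and Il17ra at 3.47. In radiated skin of week 4 the order was Il17ra at 7.90, Il20rb at 5.55, Il22ra1 at 3.33, Il19 at 3.25, Il24 at 3.18, Il20ra at 2.07, and the other 4 members at 0.457 or less. In control skin of that week Il19 was at 0.00929 CPM per kb and Il24 at 0.

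**Figure D3:**
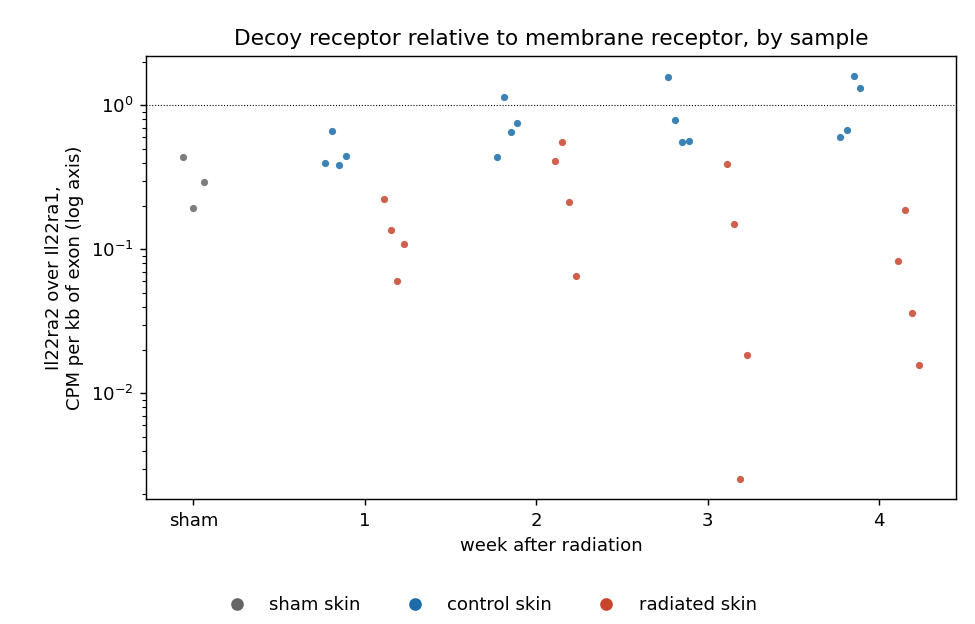
Ratio of Il22ra2 to Il22ra1, both as CPM per kb of exon, in each sample on a log axis, for sham skin and weeks 1 to 4. The dotted line marks equal levels. Radiated samples lie below all control samples of their week in weeks 1, 3 and 4.

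Whether the radiated minus control difference itself changed over the 4 weeks was tested with the 3 interaction terms of week and radiation in 1 model. It did for 6 of 8 members tested, Il20rb (adjusted p 0.000946), Il22ra2 (0.00159), Il22ra1 (0.00932), Il19 (0.0155), Il17ra (0.0362) and Il20ra (0.0482), against 15.6% of genes in edgeR. Il19 and Il24 averaged at most 0.275 and 0.242 CPM in any week of control skin, and passed the filter only through radiated skin. The count thus describes the members that passed and is not set against the share of all genes as support. Il20ra was lost with total-count scaling (adjusted p 0.0508) and without the filter (adjusted p 0.0542). With the mouse as a block Il20ra was lost (adjusted p 0.0515) and Il24 was gained (adjusted p 0.0428). Leaving out replicate 1, 2 or 4 of every group left 3 of the members called and leaving out replicate 3 left 1, while the count over all genes fell from 3013 to between 960 and 1782.

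Radiated skin was also compared with sham skin, which stands for mice without the dose as far as its label says. These comparisons share the radiated samples with those above. In week 3, 6 of the 8 tested were called (Il19, Il24 and Il17ra higher, Il22ra2, Il20ra and Il20rb lower), against 18.2% of genes (10.4% higher and 7.75% lower), and in week 4, 7 of 8, with Il22ra1 lower as well, against 26.7% (15.2% higher and 11.5% lower). Il24 was at 0 in all 3 sham samples and Il19 in 2 of the 3, so both passed the filter only through radiated skin. The counts of weeks 3 and 4 describe the members that passed and are not set against the share of all genes as support. None of 7 was called in week 1, against 1.75% of genes (0.543% higher and 1.21% lower), and none of 6 in week 2, against 5.06% (2.16% higher and 2.9% lower, or 389 and 523 genes, which became 277 and 688 with total-count scaling). At an unadjusted p under 0.05 it was 3 in each of these weeks, and DESeq2 called 1 and 2, where it called 1214 and 2439 of all genes. The share of all genes at the unadjusted threshold is not given for these comparisons, so those counts are not read as a result about the members. Without radiated replicate 1 of week 2, 3 were called there (Il20ra, Il20rb and Il17ra). Il22ra2 was at 9.10, 4.64 and 5.53 CPM in sham skin, which put the radiated samples lower by 3.59 in log2 in week 3 (± 0.722 SE, edgeR adjusted p 0.0145) and by 2.99 in week 4 (SE 0.740, adjusted p 0.0181). The week 4 call was lost without radiated replicate 1 (adjusted p 0.0541) or without sham replicate 1 (0.0519). Without radiated replicate 2 the log2 fold change was -4.29 in week 3 and -4.22 in week 4. Il20rb, at 125, 96.5 and 90.9 CPM in sham skin, fell by 1.86 (edgeR adjusted p 0.0314) and by 2.11 (adjusted p 0.000578). Its week 3 call was lost in 5 of the 7 fits that left out 1 library, with edgeR adjusted p between 0.0658 and 0.0906. The week 3 call of Il20ra was lost in 4 of the 7. Il24 was at least 28.7-fold higher in week 3 and at least 31.7-fold higher in week 4 than in sham skin, where it was at 0 (edgeR adjusted p 0.00575 and 0.00300). Without sham replicate 2 or without sham replicate 3 the week 3 count fell to 3, with Il20ra, Il20rb and Il19 lost.

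Control skin differed from sham skin by the test for 2 members, each in 1 week. Its mean Il22ra2 level over weeks 1 to 4 was 10.3, 14.4, 17.1 and 32.7 CPM, against 6.42 CPM in sham skin. In week 4 the control samples were all above the sham samples (log2 fold change 2.34 ± 0.442 SE, edgeR adjusted p 0.0313), the only 1 of 6 members called in that comparison, where 3.65% of genes were (1.76% higher and 1.9% lower). Of the 7 fits that left out 1 library, 5 ended this call, with adjusted p between 0.0674 and 0.116. In week 3 Il17ra was higher in control than in sham skin by 0.77 in log2 (± 0.173 SE, edgeR adjusted p 0.0286), the only 1 of 6 members called, against 11.4% of genes (5.18% higher and 6.19% lower, or 927 and 1109 genes, which became 571 and 1951 with total-count scaling), and 4 of the 7 fits that left out 1 library ended the call, with adjusted p up to 0.0875. In weeks 1 and 2 none of 6 members was called, against 4.92% of genes (3.28% higher and 1.65% lower) and 2.44% (1.37% higher and 1.06% lower), 1 and 0 had an unadjusted p under 0.05, and DESeq2 called 0 in both. With total-count scaling the 586 higher and 295 lower genes of week 1 became 361 and 469, and the 245 and 190 of week 2 became 198 and 322. The differences between the 4 weeks of control skin were not tested. The comparisons with sham skin share the 3 sham samples, and hair follicle markers, summed over 10 genes, were at 848 to 9629 CPM in sham skin and at 8.63 to 11.3 CPM in control skin of week 4. Their part in the result was not tested.

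The partner chains outside the 10 genes did not move as one. Il10rb, the second chain of the IL-22 receptor, was at 43.9, 28.0, 39.7 and 22.3 CPM in radiated skin of week 3 and 11.8, 9.01, 9.53 and 11.0 CPM in control skin, and rose by 1.73 in log2 (± 0.234 SE, edgeR adjusted p 0.00175) in week 3 and by 1.28 (SE 0.181, adjusted p 0.000309) in week 4. The 2 chains of that receptor thus went in opposite directions in week 4, Il22ra1 down and Il10rb up. Il17rc, which pairs with IL-17RA, had log2 fold changes of 0.06 (± 0.382 SE, edgeR adjusted p 0.926) and -0.51 (SE 0.232, adjusted p 0.0975). Il23a, a subunit of IL-23, a cytokine that sustains type 17 lymphocytes, rose in week 4, with 1.79, 1.86, 2.05 and 1.96 CPM against 1.06, 0.752, 1.32 and 1.23 CPM (log2 fold change 0.81 ± 0.243 SE, edgeR adjusted p 0.0197), and in week 3 it was at 0.63 (adjusted p 0.0913).

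Of the other IL-22 and IL-20 family ligands and shared chains, 2 of 4 tested rose in week 3 and 3 rose and 1 fell in week 4, where 27.2% and 48.4% of all genes were called. Of the 3 that rose in week 4, Il10 reached the filter's level in 0 of 4 control libraries and passed only through radiated skin. Il10ra, the specific chain of the IL-10 receptor, was higher by 2.77 and 2.69 in log2, Il10 by 2.94 in week 4 (edgeR adjusted p 2.67e-05), and Ifnlr1, the lambda interferon receptor chain, was lower by 1.70 in week 4 (log2 fold change -1.70, adjusted p 0.000100). Of the other IL-17 ligands and receptor chains, 5 were tested and none rose, while 1 fell in week 3 and 2 in week 4, where 13.6% and 24.2% of all genes fell. Il17rd fell in week 3 (log2 fold change -0.80, SE 0.157), and Il17rb and Il17re, the chains of the IL-25 and IL-17C receptors, fell in week 4 (log2 fold changes -0.93 and -0.92).

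Among 13 tested genes of the IL-23 axis and of factors of type 17 lymphocytes, 4 rose and 2 fell in week 3 and 7 rose and 3 fell in week 4, against 27.2% and 48.4% of all genes called, with median log2 fold changes of 0.63 and 0.81. The cytokines Il6 and Il1b rose, Il6 from a control mean of 0.207 to 17.6 CPM and Il1b from 3.21 to 81.4 CPM in week 4, along with Batf and Il1r1. Il6 reached the filter's level in 3 of 4 control libraries in week 3 and 0 of 4 in week 4. It would not have passed on control skin alone in either week. Among the genes that fell in week 4 were the nuclear receptor gene Rora, with a log2 fold change of -1.49 (SE 0.163), and Ahr, which encodes the aryl hydrocarbon receptor, at -1.06 (SE 0.126). Of 14 signalling genes, 3 rose in week 3 and 4 rose and 2 fell in week 4 (1 with the block, Traf6 being lost with adjusted p 0.0931), where 13.6% of all genes rose in week 3 and, in week 4, 24.2% rose and 24.2% fell. Stat3, a transcription factor downstream of the IL-20 and IL-22 receptors, rose from 144 ± 10.3 to 285 ± 9.42 CPM (SD, n = 4 each) in week 4 (log2 fold change 1.00 ± 0.0769 SE, edgeR adjusted p 8.82e-06), and Cebpb rose in both weeks (log2 fold changes 1.03 and 1.2), though in week 3 not with the block (adjusted p 0.0767).

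A list of 28 keratinocyte genes known to be induced by IL-17, IL-22 or IL-20 family cytokines was read from the same fits. None of 15 tested genes was called in week 1 and none of 16 in week 2. With the mouse as a block 2 were called in week 2, where 641 of all genes were. An unadjusted p under 0.05 was seen for 10 and 7. The numbers of all genes under it are given with the alternatives below, and these counts are not read as a result about the list. In week 3, 22 of the 28 passed the filter on low counts, 18 rose and none fell, where 13.6% of all genes rose, and in week 4, 25 passed, 23 rose and none fell, where 24.2% rose. Of those that rose, 9 in week 3 and 10 in week 4 were too low in control skin to have passed on it alone, so they entered the test through the radiated samples in which they were high. The counts and the medians below therefore describe the genes that passed and are no measure of the whole list. The genes that passed had median log2 fold changes of 4.61 and 5.08, or 4.05 and 4.69 with Mmp1a, which was at 0 in every control library, set to its bound. All genes tested had medians of 0.08 and 0.02. Krt6b, a keratin of activated epidermis whose reads can be shared with its near-identical neighbours, reached 1880 ± 1480 CPM against 4.39 ± 6.93 in week 3 and 2548 ± 523 against 1.58 ± 0.206 in week 4 (SD, n = 4 each). Krt16, another such keratin, was at 4630 ± 1042 against 20.1 ± 8.59 CPM in week 4. The neutrophil chemokine Cxcl2 was at 66.6 ± 34.7 against 0.254 ± 0.152 CPM in week 3 (log2 fold change 8.07, SE 0.587), and the alarmins S100a9 and S100a8 had log2 fold changes of 7.47 (SE 0.965) and 6.91 (SE 0.952). Reg3g, an antimicrobial lectin, was at 5.32 ± 1.70 CPM in radiated skin of week 4, against 1 count in the control samples together, and Serpinb3a at 7.10 ± 5.32 CPM, against 2 counts. S100a8, S100a9 and several chemokines of the list are also made by neutrophils and macrophages.

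Of 8 differentiation genes listed as lowered by IL-22, 1 rose and 1 fell in week 3, and 1 rose and 4 fell in week 4, where 27.2% and 48.4% of all genes were called. The week 3 count is thus no more than that of genes at large. The list's median log2 fold changes were -0.64 and -1.09, beside 0.08 and 0.02 for all genes. The gene that rose in both weeks was Klk6, a kallikrein protease, with log2 fold changes of 5.12 (SE 0.449) and 5.19 (SE 0.437), against the direction of the list's name. Flg2 fell in both, by 3.06 and 4.24 in log2, and in week 4 Krt10, Lor and Ivl, which encode proteins of the upper epidermis, fell by 2.59, 2.26 and 1.86. Flg, Krt1 and Calml3 did not pass in either week.

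**Figure D4:**
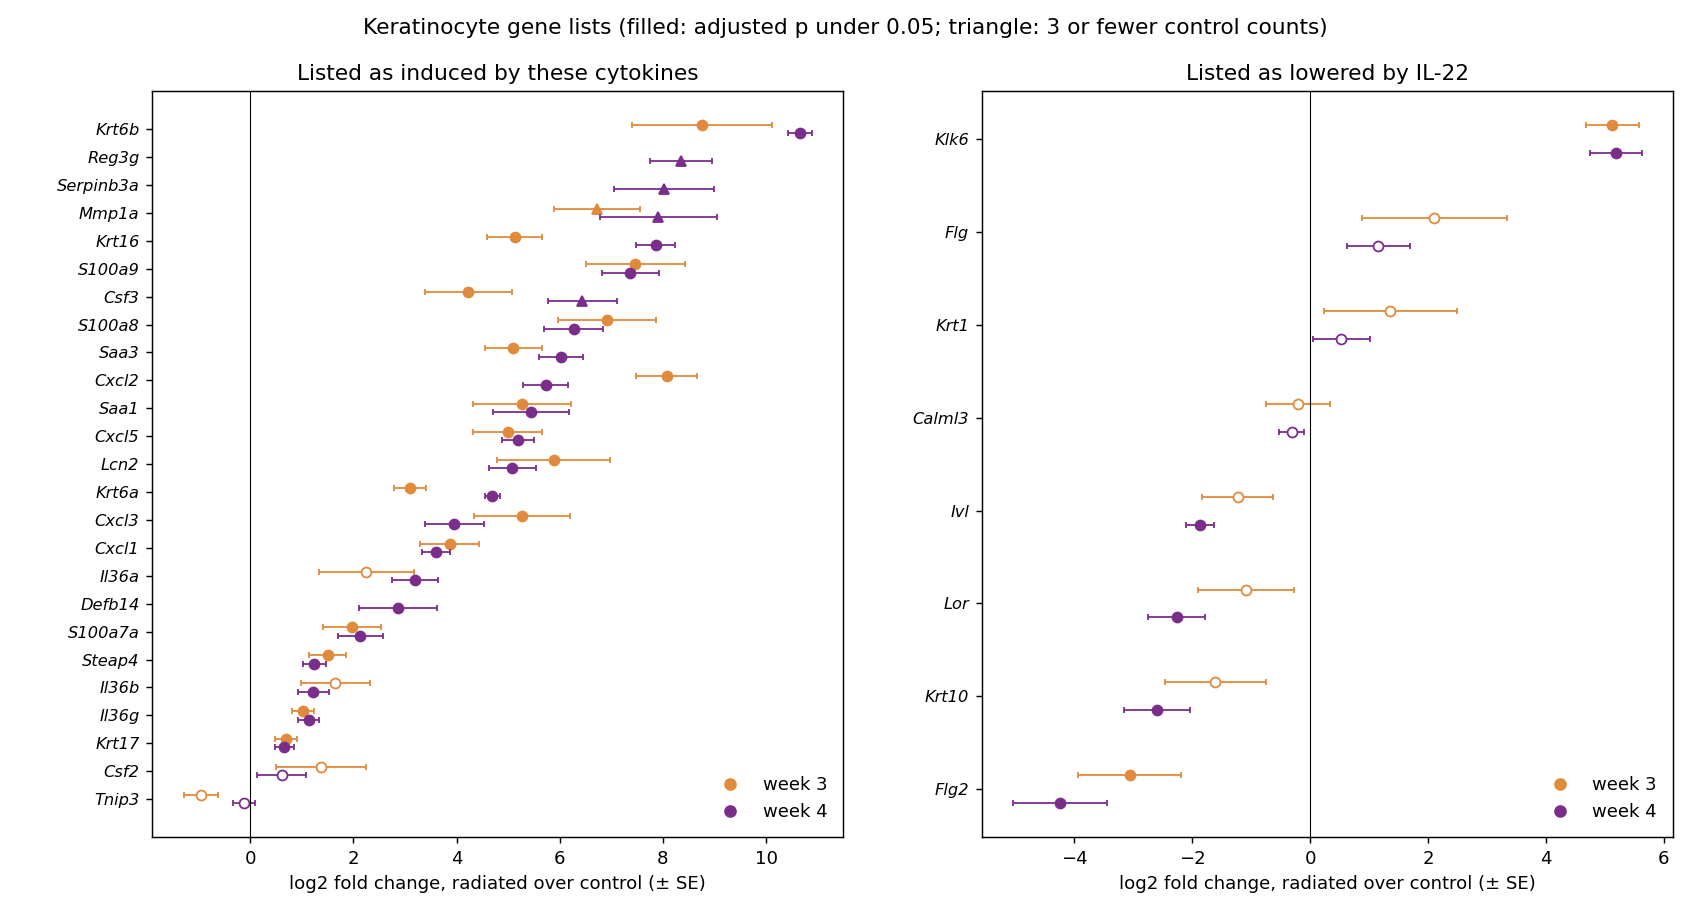
Log2 fold change of radiated over control skin with its standard error for the tested genes of both keratinocyte lists, in weeks 3 and 4, 4 against 4 samples. Filled points had an adjusted p under 0.05 in edgeR, and triangles have 3 or fewer counts in the control samples together. At week 4 the called genes of the left list all lie above 0, and in the right list Klk6 stands above 0 and Flg2, Krt10, Lor and Ivl below.

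Markers of cell types moved in the same samples. The summed level of 6 keratinocyte markers was 21222 to 23647 CPM in control and 11087 to 15942 CPM in radiated skin of week 4, and 13893 to 18788 against 5366 to 23764 CPM in week 3. Within this list Krt14 rose in week 4 (log2 fold change 2.03, SE 0.124) while Krt5, Krt15, Krt10 and Trp63 fell, and in week 3 it was 1 higher and 2 lower of 6, where 13.6% of all genes rose and 13.6% fell in week 3 and 24.2% each way in week 4. The 4 that fell had log2 fold changes of -0.83 (Krt5), -1.37 (Trp63), -2.59 (Krt10) and -4.48 (Krt15), beside -1.88 for Il22ra1, -2.68 for Il20rb, -2.86 for Il20ra and -5.36 for Il22ra2, and Krt1 was not called. Sebaceous gland markers fell for 2 of 5 genes in week 3 and 4 of 5 in week 4, or 1 and 3 with the mouse as a block, where Scd1 was lost (adjusted p 0.0839 and 0.0981), beside 13.6% and 24.2% of all genes lower. Their part in the fall of the receptor chains was not tested.

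Other structural cell types shifted as well, beside the same shares of all genes (13.6% each way in week 3 and 24.2% each way in week 4). The 6 fibroblast markers summed to 2207 to 4635 CPM in control and 27905 to 47082 CPM in radiated skin of week 4, with 6 of 6 higher, and in week 3 to 2063 to 12028 against 11942 to 21322 CPM, with 1 higher. The 6 skeletal muscle markers went the other way, with 5 of 6 lower in both weeks, or 1 in week 4 with the mouse as a block. Their sum was 17281 to 34175 against 2892 to 8785 CPM in week 3 and 1425 to 21911 against 1120 to 2650 CPM in week 4. Of 10 hair follicle genes, none of 7 tested was called in week 3 and 6 of 8 rose in week 4, of which 4 were too low in control skin to have passed the filter on it alone. Endothelial markers rose for 1 of 4 genes in week 3 (0 with the block) and 3 of 4 in week 4, and melanocyte markers for 0 and 3 of 4. Of 5 adipocyte markers, 1 fell in week 3 and 0 in week 4 (1 with the block). The part of these shifts in the changes of the members was not tested.

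Markers of immune cells differed by cell type, and the counts called in week 4 stand beside 48.4% of all genes (24.2% higher and 24.2% lower). The 9 macrophage and monocyte markers summed to 271 to 454 CPM in control and 1457 to 2116 CPM in radiated skin of week 4, with 9 of 9 higher, and the 8 neutrophil markers to 11.8 to 16.1 against 207 to 438 CPM, with 5 of 6 tested genes higher and Ly6g at 0 in control skin. Of these 5, 3 (S100a8, S100a9 and Retnlg) were too low in control skin to have passed the filter on it alone. Of 12 T cell and innate lymphoid markers, 6 rose and 1, Cd3e, fell in week 4, and their sum was 156 to 205 CPM in control and 398 to 458 CPM in radiated skin. Of the 6, 1 (Trac) was too low in control skin to have passed the filter on it alone. The 6 markers of dermal gamma delta T17 cells, a main source of IL-17 in mouse skin, summed to 37.8 to 40.4 CPM in control and 21.1 to 28.5 CPM in radiated skin of week 4, with 1 of the 6 higher and 1 lower. The 12 Langerhans and dendritic cell markers overlapped, at 349 to 387 CPM in control and 344 to 496 CPM in radiated skin of week 4, with 5 higher and 1 lower. Of the 5, 1 (Ccr7) was too low in control skin to have passed the filter on it alone. Cd207, which fell, was too low in radiated skin to have passed on that alone. The 6 mast cell markers summed to 35.1 to 41.4 CPM in control and 96.8 to 137 CPM in radiated skin of week 4, with 5 of 6 higher in week 3 and in week 4. Their part in the changes of Il17ra, Il19 and Il24 was not tested.

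The genes of most like pattern were named by the Pearson correlation of log2 CPM over the 35 samples among 16407 genes averaging 1 CPM or more. For Il22ra2 they were Paip2b (0.956), Abca5 (0.952), Anxa8 (0.945), Slc7a6 (0.938) and Vps13a (0.937). For Il24 they were Smim3 (0.945), Gsta4 (0.928), Vmp1 (0.925), Mmp10 (0.918) and Cd101 (0.917). Among the members, Il19 had 0.869 with Il24, Il20rb -0.882 and Il20ra -0.853, and Il22ra2 had 0.879 with Il20rb and 0.852 with Il20ra. The samples share groups, weeks and mice, so these values describe the pattern over groups and carry no test.

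The neighbours of the 2 gene clusters were looked at in the same fits. Beside Il19, Il20 and Il24 on chromosome 1, Il10 rose in week 4 as given above, Mapkapk2, a stress kinase gene, rose by 0.67 in log2 (± 0.140 SE, edgeR adjusted p 0.00332) and Pigr, the polymeric immunoglobulin receptor, fell in week 3 (log2 fold change -1.36) and week 4 (-1.24). Fcmr was below the filter. Beside Il22ra2 and Il20ra on chromosome 10, Ifngr1, a chain of the interferon gamma receptor, had a log2 fold change of -0.49 in week 4 (± 0.133 SE, edgeR adjusted p 0.0133), which did not hold with the block (adjusted p 0.0509), Pex7 was not called (adjusted p 0.124), and Olig3 and Slc35d3 were below the filter.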

How the data were processed

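Per the labels' protocols, RNA of mouse skin biopsies was sequenced in bulk, and per the submitters' processing notes Trim Galore 0.6.7, kallisto 0.46.2 and the build mm10 were used. The deposited table holds the authors' estimated counts per gene, not normalized and split by kallisto among genes that share sequence. They were rounded to whole numbers, and 35866 of 36106 identifiers matched a gene of GENCODE M21, which gave symbols, coordinates and exon lengths. Samples were grouped by their labels. Genes passing filterByExpr were fitted with edgeR 4.0.16 in R 4.3.3 (TMM scaling, quasi-likelihood F test, Benjamini-Hochberg adjustment), with the 2 groups of each of 12 comparisons in a fit of their own and all radiated and control samples in the interaction fit, and the standard error was taken as the log2 fold change over the root of F. Ranges that do not overlap were counted over genes averaging 0.1 CPM or more. The procedure was tested on simulated data. DESeq2 1.42.0 served as an alternative, as did RLE and total-count scaling, no filter, the mouse as a block, 1 fit of all samples and leaving out each replicate. Figures and tables were made in Python 3.11.15.

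The members and lists were chosen with earlier results of these data known. Named by rule were all members, their partner chains, and up to 4 called genes each way of a list with the largest log2 fold change and at least 1 CPM. The lists were the 6 of pathway genes and 14 of cell markers. The pairing of radiated and control samples by mouse was inferred from 35 samples of 19 mice and from shared names. The deviations of same-numbered samples from their group means had mean correlations of 0.07, 0.17, 0.05 and -0.02 in weeks 1 to 4 over 19813 genes. No 2 of the 595 pairs of libraries held identical values. Among the genes of these lists, 1 is not reported here.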

Additional observations from a re-analysis of the deposited data

Results flagged for a closer look

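In groups of 4, a sample was singled out where its gap to the nearest of the others took up more of the group's range than Dixon's 95% value allows, over 60 sets of a member and a group with a mean of at least 5 counts. Chance gives about 1 in 20 such sets, and 6 were found. Il22ra2 was highest in control replicate 1 of week 3, at 35.9 CPM. Il20 was highest in control replicate 1 of week 4, at 3.55 CPM, and in radiated replicate 3 of week 4, at 0.712 CPM. Il17f was lowest in control replicate 3 of week 1, at 0.286 CPM, in radiated replicate 2 of week 2, at 0.234 CPM, and in control replicate 4 of week 3, at 0.171 CPM. Without control replicate 1 the fall of Il22ra2 in week 3 kept its call.

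The radiated minus control difference varied over weeks 1 to 4 for 6 members by the interaction test in edgeR, with adjusted p of 0.00159 for Il22ra2, 0.00932 for Il22ra1, 0.0482 for Il20ra, 0.000946 for Il20rb, 0.0155 for Il19 and 0.0362 for Il17ra. Of these, Il20rb kept its call in each of the 4 fits that left out 1 replicate number.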

How the results depend on the processing

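Of 1164 recomputed member values, 1050 kept their direction and their side of the threshold, 62 lost a call, 15 gained one and 37 changed sign, none of them called (lowest adjusted p 0.411 in edgeR). The fall of Il22ra2 and the rises of Il19 and Il24 in week 3, and the 7 calls of week 4, held under all 14 alternatives run. Beyond the calls given above, the mouse as a block changed none of the members' calls between radiated and control skin.

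The number of members called moved from 0 to 1 with DESeq2 in week 1, in week 2 and for radiated skin of week 1 against sham skin. For radiated skin of week 2 against sham skin it moved from 0 to 2 with DESeq2 and to 2 in 1 fit of all samples. For control skin against sham skin it moved from 1 to 2 with total-count scaling, to 2 with DESeq2 and to 0 with the replicate block in week 3, and from 1 to 3 with DESeq2, to 0 with the replicate block and to 0 in 1 fit of all samples in week 4. There the numbers name different mice. Leaving out 1 library gave 0 to 1 members in week 1, 3 to 6 in week 3, 0 to 3, 3 to 6 and 6 to 7 for radiated skin of weeks 2, 3 and 4 against sham skin (7 to 8 under the other settings in week 4), and 0 to 1 and 0 to 2 for control skin of weeks 3 and 4 against it. Leaving out 1 replicate number of every group gave 1 to 3 in the interaction. Over all genes, DESeq2 called 424 in week 1 and 711 in week 2, where edgeR called 0 and 1 (2477 and 2388 at an unadjusted p under 0.05), and the block 641 in week 2. Without 1 library the calls over all genes ranged from 3209 to 5071 in week 3 and from 7548 to 8582 in week 4, and without 1 replicate number from 960 to 1782 in the interaction. Against sham skin they ranged from 1 to 543, 107 to 1398, 1134 to 3965 and 3467 to 4590 for radiated skin of weeks 1 to 4, and from 0 to 1803, 0 to 2199, 629 to 2438 and 0 to 1705 for control skin.

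Log2 fold changes that changed sign reached 0.683 in size (Il17f in week 3), and the cause was not tested. Total-count scaling gave 0.091 for Il17f and 0.073 for Il17ra in week 1, -0.091 for Il22ra2 and -0.033 for Il22ra1 in radiated skin of week 2 against sham skin, and -0.11 for Il22ra1 (week 1) and -0.17 for Il20ra (week 2) in control against sham skin. The replicate block gave 0.056 for Il17f in week 1, -0.11 for Il17f in week 3 and -0.074 for Il20ra in control skin of week 2 against sham skin. Leaving out 1 library gave Il17f -0.32 to 0.11 in week 1, -0.50 to 0.088 in week 2 and -0.68 to 0.42 in week 3, and Il17ra -0.19 to 0.061 in week 1. Against sham skin it gave Il22ra2 -0.37 to 0.40 and Il22ra1 -0.17 to 0.27 for radiated skin of week 2, Il17f -0.30 to 0.048 for radiated skin of week 4, Il22ra1 -0.030 to 0.14, Il17f -0.42 to 0.020 and Il20ra -0.016 to 0.41 for control skin of week 1, and Il17f -0.43 to 0.16 and Il20ra -0.18 to 0.25 for control skin of week 2. Depth limits Il17a and Il20, whose counts were mostly 0.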
